A study of Mus musculus with 8 samples.

Results

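Brown fat identity and its thermogenic core were followed through 10 genes, Ucp1, Cidea, Dio2, Ppargc1a, Ppargc1b, Prdm16, Elovl3, Kcnk3, Zic1 and Ebf2, which were taken by gene symbol from a count table of 56953 genes. All 10 were found and all 10 passed the filter on low counts. RNA was sequenced from the brown adipose tissue (BAT) of 8 wild-type C57BL/6J mice, male or female and 8 to 10 weeks old, kept at 21.0 °C. The 4 cachectic mice (CAC) had received 3000000 Lewis lung carcinoma (LLC) cells in 100 µL of PBS under the skin of the right flank, and the 4 control mice (CTR) had received PBS alone. LLC is a mouse lung tumour cell line, and tumour-injected mice were watched for 21 days and kept only if a tumour formed. The sex of each mouse, and so any imbalance of sex between the groups, is not given in the sources used here.

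Brown adipocytes burn fuel to make heat. UCP1, a carrier in the inner mitochondrial membrane, lets protons return to the matrix without ATP synthesis. In the cold, noradrenaline acts on beta-adrenergic receptors, cAMP rises and protein kinase A activates CREB and ATF2, which induce Ucp1, Dio2 and Ppargc1a. PGC-1alpha (Ppargc1a) and PGC-1beta (Ppargc1b) are coactivators that drive mitochondrial genes, and PGC-1alpha also coactivates Ucp1 itself. DIO2 makes active thyroid hormone inside the cell, while PRDM16 and EBF2 hold brown fate and ZIC1 marks the classical brown lineage. The question put to the data was how Ucp1 stood beside these activators in cachexia.

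Promoter sequence was at hand for 5 of the 10 genes in the RefSeq table of GRCm38.p6, which runs from 250 bases before each start site to 50 after it. The promoters of Ucp1 (chr8:83290098-83290397, plus strand), Dio2 (chr12:90738989-90739288, minus strand) and Ppargc1a (chr5:51567676-51567975, minus strand) are shown because these 3 genes form the cAMP-induced set on which the comparison turns. Each is written 5′ to 3′ on the strand of its gene, and capitals mark matches to the cAMP response element TGACGTCA, to its shorter form TGACG on either strand, and to the TATA box TATAAA.
Ucp1: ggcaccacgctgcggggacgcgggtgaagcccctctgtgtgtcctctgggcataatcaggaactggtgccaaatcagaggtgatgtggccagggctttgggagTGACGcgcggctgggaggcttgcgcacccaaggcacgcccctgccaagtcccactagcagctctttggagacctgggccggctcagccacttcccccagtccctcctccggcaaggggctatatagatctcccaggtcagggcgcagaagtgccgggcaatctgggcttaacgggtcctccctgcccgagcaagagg
Dio2: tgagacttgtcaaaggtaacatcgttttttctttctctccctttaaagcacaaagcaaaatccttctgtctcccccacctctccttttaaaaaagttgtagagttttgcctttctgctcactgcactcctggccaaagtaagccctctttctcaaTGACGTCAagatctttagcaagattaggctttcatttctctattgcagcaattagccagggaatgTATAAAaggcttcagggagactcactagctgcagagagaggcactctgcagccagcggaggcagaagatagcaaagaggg
Ppargc1a: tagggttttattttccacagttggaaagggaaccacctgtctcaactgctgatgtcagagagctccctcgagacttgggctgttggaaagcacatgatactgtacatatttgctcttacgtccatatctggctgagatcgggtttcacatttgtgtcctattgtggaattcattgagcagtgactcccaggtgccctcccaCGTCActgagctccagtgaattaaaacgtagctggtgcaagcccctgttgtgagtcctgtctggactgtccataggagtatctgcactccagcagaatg
The Dio2 window holds the whole element from -95 to -88, counted from the start site, and a TATA box from -30 to -25. The whole element contains the shorter form on each strand. The Ucp1 window has the shorter form once, from -147 to -143, and the Ppargc1a window has it once on the opposite strand, from -49 to -45. Over all 32851 promoters of that length, 1.79% hold the whole element, 20.8% the shorter form and 13.6% the TATA box on either strand. The start site of Dio2 in this table lies 600 bases from the outer end of the gene in GENCODE M21, against 4 bases for Ucp1 and 1 base for Ppargc1a. Such matches describe letters and were not tested as sites, and enhancers farther out are not covered by these windows.

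The windows of Prdm16 (chr4:154636824-154637123, minus strand) and Zic1 (chr9:91365719-91366018, minus strand) held no cAMP response element in either form. Prdm16 had 1 CCAAT box, and Zic1 had 2 together with 1 CACGTG E-box. On both strands, CCAAT was found in 37.4% of all promoters and CACGTG in 7.15%. None of the 5 windows matched the DR1 element of PPAR receptors (in 0.0396% of promoters), the ERR element TCAAGGTCA (0.423%) or the EBF motif CCCNNGGG (13.7%), searched on both strands.

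Total counts were 2454493 to 4827956 per library in CTR and 1823167 to 3392538 in CAC. Levels are in CPM, read counts normalised to library size (here the size scaled by the TMM method). A gene with 0 reads may still have had up to 3, or 0.661 to 1.62 CPM, a limit that covers counting error only. CAC 1 and CAC 2 were the shallowest libraries and CTR 4 the deepest. The mitochondrial genome gave 28.5% to 33.8% of all reads counted. The adipocyte markers were all measured, with Adipoq (adiponectin) at 891 ± 73.2 CPM in CTR against 919 ± 43.6 CPM in CAC (SD, n = 4), and Hoxc10, Tcf21 and Wt1 of the white adipocyte list were at 0 in all 8 libraries. Of 8 marker lists for other cells, 4 held genes that edgeR called, all of them higher in CAC. No list was tested as a whole. The summed CPM of 9 skeletal muscle markers ran from 1153 to 2822 in CTR and from 2554 to 4660.5 in CAC, that of 6 erythrocyte markers from 6180 to 19268 and from 14636 to 44326, that of 8 macrophage markers from 201 to 222 and from 275 to 385, and that of 8 neutrophil markers from 6.39 to 6.64 and from 163 to 430. By estimate, all 9 muscle, all 6 erythrocyte, 7 of 7 tested macrophage and 3 of 3 tested neutrophil markers were higher in CAC. Of them, 1, 1, 2 and 3 passed edgeR's adjusted threshold, where 0.739% of all tested genes passed as higher. The muscle sums overlapped between the groups, as did the erythrocyte sums. S100a8 and S100a9, with CAC means of 175 and 73.5 CPM, gave most of the mean neutrophil sum of 264 CPM. Every other marker of that list also had more reads over the CAC than over the CTR libraries. Retnlg had 106 against 13, Ngp 23 against 2, Ltf 11 against 1 and Mmp8 10 against 1. The paper reports S100A9 inside brown adipocytes and no significant difference in neutrophil numbers. It also reports that S100A8 protein was barely detected in the BAT secretome. Whether the neutrophil sum stands for neutrophils alone was not tested. The endothelial, fibroblast, smooth muscle and pericyte, and Schwann cell lists had 0 called genes in edgeR's test. Their medians were -0.07, 0.00, -0.14 and 0.30. An unadjusted p below 0.05 was found for 1 endothelial and 2 smooth muscle or pericyte markers, and for 12.9% of all tested genes. The part of other cells in any result given here was not tested.

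Per kilobase of exon, the 10 genes spanned more than 3 orders of magnitude. Cidea led in CTR with 5264 ± 806 CPM per kb (SD, n = 4), followed by Ucp1 with 2424 ± 114, Kcnk3 with 134 ± 23.9 and Elovl3 with 42.4 ± 4.76. Then came Ppargc1b with 33.5 ± 6.17, Dio2 with 13.4 ± 5.76 and Ppargc1a with 7.86 ± 1.58 CPM per kb, while the lineage factors closed the order with Ebf2 at 5.77 ± 0.68, Prdm16 at 3.00 ± 0.54 and Zic1 at 1.13 ± 0.17. The order of the means was the same in CAC. Among neighbours in CTR, the ranges of Elovl3 and Ppargc1b overlapped, as did those of Dio2 and Ppargc1a, and the others did not. The paper names a Digital mRNA-seq library service, but whether the reads cover whole transcripts is not given in the sources used here. The order holds only as far as the reads do so. Without division by length, Ppargc1b (134 CPM in CTR) stood above Elovl3 (83.8 CPM in CTR).

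**Figure D1:**
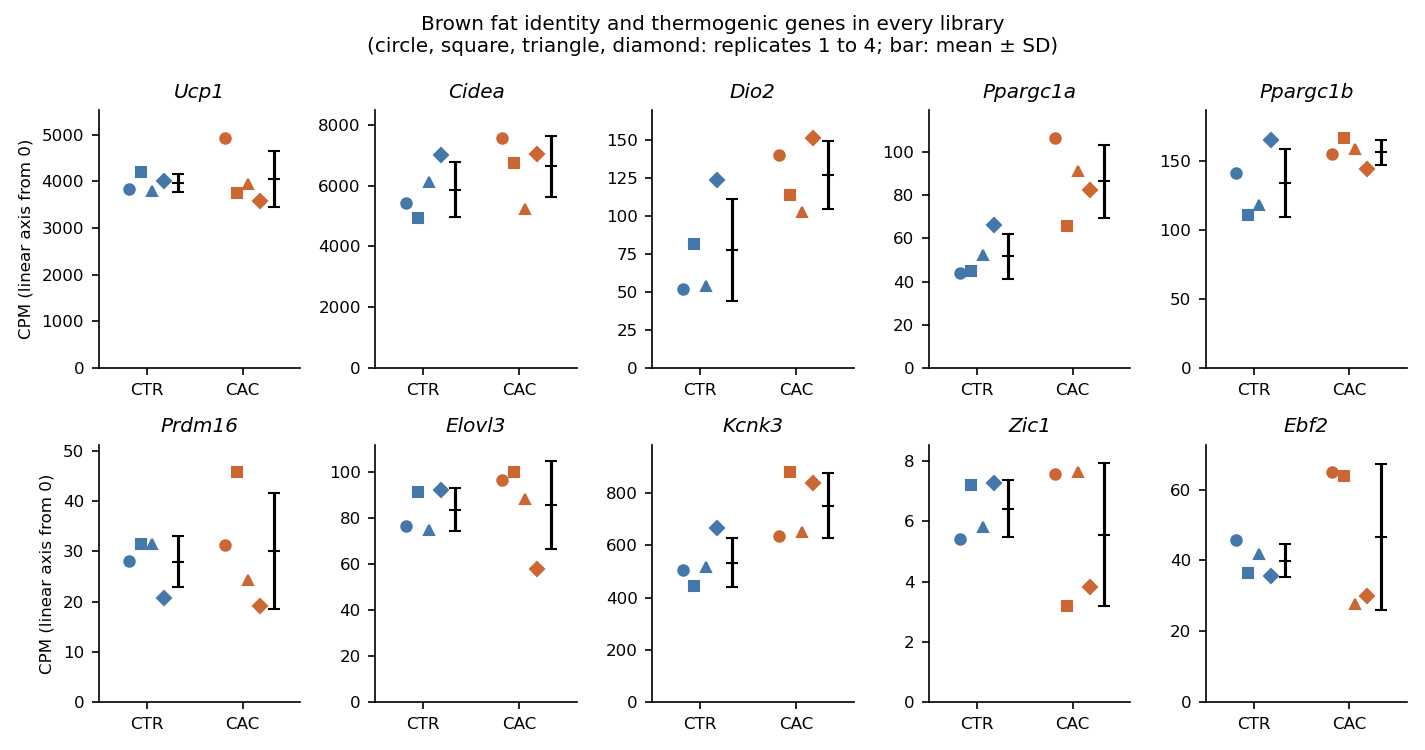
CPM of the 10 genes on linear axes from 0, with 1 symbol per library (blue, CTR; orange, CAC; circle, square, triangle and diamond for replicates 1 to 4) and the mean ± SD of each group in black. Ppargc1a rises from 51.8 to 86.5 CPM, while the Ucp1 groups overlap around 3965 and 4059 CPM and the Ebf2 libraries of CAC split to either side of CTR.

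Of the 10 genes, 1 rose in CAC and 0 fell at an adjusted p below 0.05 in edgeR's quasi-likelihood test. Over the 9876 genes tested, 0.932% were called, 0.739% as higher and 0.192% as lower. Ppargc1a was the gene that rose. At an unadjusted p below 0.05, Kcnk3 joined it and 0 were lower, where 12.9% of all tested genes passed, 7.01% as higher and 5.93% as lower. In 0 of the 10 did the CAC libraries all lie above or all lie below those of CTR, as they did in 3.64% and 3.4% of all tested genes. By estimate, 9 of the 10 were higher in CAC and 1 was lower, and the median log2 fold change (log2FC, with its standard error, SE) was 0.18 beside 0.00 over all tested genes. DESeq2 and limma-trend each called 1 of the 10 as well. In bulk tissue, a difference in the number of brown adipocytes and one in RNA per cell cannot be told apart, in either direction.

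**Figure D2:**
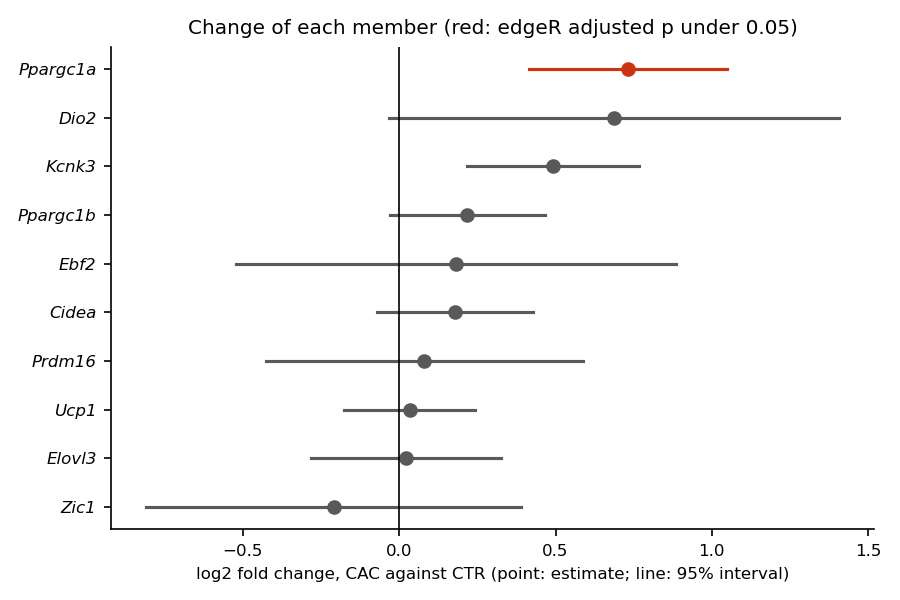
Log2FC of CAC against CTR for the 10 genes, with points for edgeR's estimates and lines for 95% intervals, and red for an adjusted p below 0.05. Ppargc1a (0.73) is the red point, Kcnk3 (0.49) has an interval above 0 without passing the adjusted threshold, and Ucp1 (0.03) has an interval on both sides of 0.

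Ucp1 (ENSMUSG00000031710.5, chr8:83290352-83298452 in GRCm38) did not pass the test. It stood at 3839.7, 4210.1, 3804 and 4008 CPM in CTR 1 to 4 and at 4932, 3761, 3953 and 3590.3 CPM in CAC 1 to 4. CAC 1 was above every CTR library, CAC 2 and CAC 4 were below every one, and CAC 3 lay among them. The means were 3965 ± 186 CPM and 4059 ± 601 CPM (SD, n = 4), a log2FC of 0.03 with an SE of 0.10 (edgeR adjusted p = 0.935). The 95% interval ran from 0.886-fold to 1.18-fold of CTR. The coefficient of variation was 4.68% in CTR and 14.8% in CAC, where counting alone gives 0.954%. Without CAC 1, the library with the largest share of globin counts (4.12%), the estimate turned to -0.07. By qPCR, the paper reports significantly lower Ucp1 and Pparg mRNA in BAT of CAC mice, and by Western blot lower UCP1 protein. These are other measures than the counts used here.

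Ppargc1a (ENSMUSG00000029167.14, chr5:51454250-51567726) rose 1.66-fold. Its levels were 43.9, 44.7, 52.3 and 66.4 CPM in CTR 1 to 4 and 106, 65.9, 91.1 and 82.3 CPM in CAC 1 to 4. The groups touched at a single point, since CAC 2 lay just below CTR 4 and the other CAC libraries were above all of CTR. The mean went from 51.8 ± 10.4 to 86.5 ± 16.9 CPM (SD, n = 4), a log2FC of 0.73 with an SE of 0.15 (edgeR adjusted p = 0.0201), and the 95% interval ran from 1.33-fold to 2.07-fold. The gene was called in 10 of 10 other fits on all libraries, with adjusted p from 2.02e-05 to 0.0436. It was called in 5 of the 8 fits that each left out 1 library, and missed the threshold without CTR 1 (adjusted p = 0.0877), CTR 2 (0.0751) or CAC 3 (0.0875).

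Skeletal muscle also expresses Ppargc1a, and all 9 muscle markers were higher in CAC by estimate. Of these, 1 passed the test, the fast-fibre alpha-actinin Actn3 (log2FC 1.63, edgeR adjusted p = 0.0148), and the median of the list was 0.97. The muscle sum did not put the libraries in the order of Ppargc1a. CTR 4 had the lowest muscle sum (1153 CPM) and the highest Ppargc1a of CTR, and CAC 1 had the lowest muscle sum of CAC (2554 CPM) and the highest Ppargc1a of all. The erythrocyte sum put the 4 CAC libraries in the order of Ppargc1a, from CAC 2 (14636 CPM) to CAC 1 (44326 CPM), but not those of CTR, where CTR 4 had the lowest sum (6180 CPM) with the highest Ppargc1a. The macrophage sum was lowest in CAC 2 (275 CPM) among CAC and put neither group in the order of Ppargc1a. The macrophage marker C1qa put both groups in that order (37.4 to 51.2 CPM in CTR, 69.1 to 86.0 CPM in CAC). C1qa is among the 5 genes most like Ppargc1a, so its order adds nothing to that likeness. The macrophage markers C1qb, lowest of CAC in CAC 1 (45.4 CPM), and Csf1r put neither group in that order. The neutrophil sum was highest in CAC 1 (430 CPM) and lowest of CAC in CAC 4 (163 CPM), and put neither group in that order. The part of any of these cells in the rise was not tested.

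**Figure D3:**
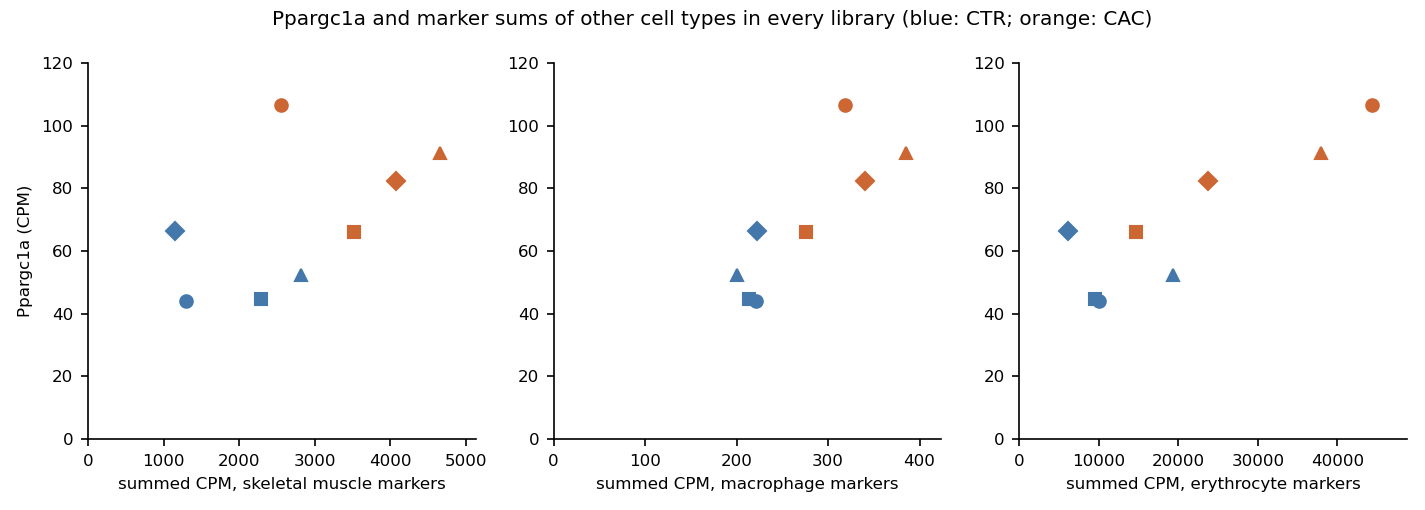
Ppargc1a (CPM, from 0) against the summed CPM of skeletal muscle, macrophage and erythrocyte markers in the 8 libraries, with symbols for replicates 1 to 4 as circle, square, triangle and diamond. CAC 1 has the highest Ppargc1a at a muscle sum of 2554 CPM, below that of CTR 3 (2822 CPM), while the CAC macrophage sums (275 to 385 CPM) all lie above those of CTR.

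Ppargc1b (ENSMUSG00000033871.15, chr18:61298136-61400431), the related coactivator, did not pass the test. It was at 141, 111, 118 and 165 CPM in CTR 1 to 4 and at 155, 166, 158 and 144 CPM in CAC 1 to 4. CTR 4 was as high as the CAC libraries, and the other 3 CTR libraries were below all of CAC. Means of 134 ± 24.6 and 156 ± 9.17 CPM (SD, n = 4) gave a log2FC of 0.22 with an SE of 0.12 (edgeR adjusted p = 0.466) and a 95% interval from -0.03 to 0.47. The estimate was 0.13 without CTR 2 and 0.35 without CTR 4, and neither was called.

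Dio2 (ENSMUSG00000007682.9, chr12:90724552-90738438) had an estimate close to that of Ppargc1a with a wider spread. It was at 51.8, 81.5, 53.9 and 124 CPM in CTR 1 to 4 and at 140, 114, 103 and 151 CPM in CAC 1 to 4. Of the CTR libraries, 3 were below all of CAC, and CTR 4 lay above CAC 2 and CAC 3. The CTR mean was 77.7 ± 33.5 CPM against 127 ± 22.5 CPM (SD, n = 4) for CAC, a log2FC of 0.69 with an SE of 0.30, and the interval from -0.03 to 1.41 included 0 (edgeR adjusted p = 0.408). Leaving out CTR 4 gave 1.02 (adjusted p = 0.00448). Of its exons, 100 bases are shared with Gm26512 on the opposite strand, and the strand setting of the counting is not given in the sources used here.

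Kcnk3 (ENSMUSG00000049265.9, chr5:30588170-30625271), a potassium channel of the brown adipocyte membrane, was higher by estimate and missed the threshold. It was at 505, 444, 518 and 667 CPM in CTR 1 to 4 and at 636, 879, 652 and 838 CPM in CAC 1 to 4. Again CTR 4 was the CTR library inside the CAC range. The mean went from 534 ± 94.8 to 751 ± 125 CPM (SD, n = 4), a log2FC of 0.49 with an SE of 0.13 (edgeR adjusted p = 0.0881) and an interval of 1.16-fold to 1.70-fold. Kcnk3 passed the threshold in 3 of the 10 other fits on all libraries and without CTR 4 (0.63, adjusted p = 0.0113), and it shares 229 exonic bases with Gm9899 on the opposite strand.

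CTR 4 was the highest CTR library for Ppargc1a, Ppargc1b, Dio2, Kcnk3, Cidea, Elovl3 and Zic1, and the lowest for Prdm16 and Ebf2. It was the deepest library (4827956 counts), with the largest mitochondrial share (33.8%), the smallest globin share (0.58%) and the smallest muscle sum. Without it, 113 of all genes were called, against 92 with it, and 3 of the 10, namely Ppargc1a (log2FC 0.89, edgeR adjusted p = 0.00332), Dio2 and Kcnk3.

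Cidea (ENSMUSG00000024526.10, chr18:67343604-67367785), a lipid droplet protein abundant in brown fat, was at 5436, 4927, 6109 and 7005 CPM in CTR 1 to 4 and at 7568, 6745, 5229 and 7029 CPM in CAC 1 to 4. CAC 3 fell among the low CTR libraries, and the groups overlapped. The log2FC was 0.18 with an SE of 0.12 (edgeR adjusted p = 0.568) and an interval of 0.952-fold to 1.35-fold, and the estimate ran from 0.0993 without CTR 2 to 0.28 without CTR 4. Elovl3 (ENSMUSG00000038754.6, chr19:46131897-46135694), an elongase of very long fatty acids that the cold induces, was at 76.7, 91.6, 74.7 and 92.2 CPM in CTR 1 to 4 and at 96.8, 99.97, 88.5 and 57.9 CPM in CAC 1 to 4. CAC 4 was below every CTR library, whereas CAC 1 and CAC 2 were above every one. The log2FC of Elovl3 was 0.02 with an SE of 0.15 (edgeR adjusted p = 0.974), and the interval ran from 0.822-fold to 1.25-fold.

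None of the 3 lineage factors passed the test, and each was more spread among the CAC than among the CTR libraries. Ebf2 (ENSMUSG00000022053.14, chr14:67233292-67430918), a factor that opens brown fat chromatin, was at 45.7, 36.5, 41.9 and 35.7 CPM in CTR 1 to 4 and at 64.9, 63.8, 27.8 and 30.0 CPM in CAC 1 to 4. CAC 1 and CAC 2 were above all of CTR and CAC 3 and CAC 4 below all of it. The coefficient of variation was 11.8% in CTR and 43.9% in CAC, against 9.32% from counting, and this difference in spread was not tested. CAC 1 and CAC 2 are also the shallowest libraries, and the part of depth in this split was not tested. The means of 40.0 ± 4.72 and 46.6 ± 20.5 CPM (SD, n = 4) gave a log2FC of 0.18 with an SE of 0.30 (edgeR adjusted p = 0.867), and 424 exonic bases are shared with Gm10860 on the opposite strand.

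Prdm16 (ENSMUSG00000039410.17, chr4:154316125-154636873) was at 28.1, 31.4, 31.5 and 20.7 CPM in CTR 1 to 4 and at 31.4, 45.7, 24.3 and 19.2 CPM in CAC 1 to 4. CAC 2 was the highest library and CAC 4 the lowest. The log2FC was 0.08 with an SE of 0.23 (edgeR adjusted p = 0.933), and the estimate turned to -0.17 without CAC 2 and to -0.05 without CTR 4. Zic1 (ENSMUSG00000032368.15, chr9:91358058-91365810) was detected in all 8 libraries with only 6 to 33 counts, or 5.40, 7.19, 5.81 and 7.28 CPM in CTR 1 to 4 and 7.57, 3.19, 7.62 and 3.83 CPM in CAC 1 to 4. CAC 2 and CAC 4 were below all of CTR and CAC 1 and CAC 3 above it. Counting error alone amounts to 25.8% for Zic1, and its log2FC of -0.21 had an SE of 0.29 (edgeR adjusted p = 0.825) and a 95% interval from -0.81 to 0.39. Leaving out 1 library moved that estimate from -0.46 without CAC 3 to -0.0383 without CAC 4, and it was not called in any of these fits.

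Ucp1 was then set against each other member within a library, as a log2 ratio, the difference of their log2 CPM with a prior count of 2. The scaling between libraries enters this ratio only through the prior count. The ratio to Ppargc1a was 6.43, 6.53, 6.17 and 5.90 in CTR 1 to 4 and 5.52, 5.82, 5.43 and 5.44 in CAC 1 to 4. Every CAC library was below every CTR library. The mean fell by 0.71, from 6.26 ± 0.28 to 5.55 ± 0.18 (SD, n = 4, exact two-sided permutation p = 0.0286). This p is the smallest that 4 against 4 libraries can give, and it was 1 of 9 ratios computed.

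The ratio of Ucp1 to Dio2 was 6.19, 5.68, 6.12 and 5.01 in CTR 1 to 4 and 5.13, 5.04, 5.26 and 4.56 in CAC 1 to 4. CTR 4 again lay within CAC, and the other CTR libraries were above all of it. The difference of -0.75 had an exact permutation p of 0.114. The ratio to Ppargc1b differed by -0.21 (exact permutation p = 0.286), that to Prdm16 by -0.03 (0.914) and that to Ebf2 by -0.09 (0.8). Among the genes that act beside Ucp1, the ratio to Kcnk3 differed by -0.47 (exact permutation p = 0.2), that to Cidea by -0.15 (0.457), that to Elovl3 by 0.01 (0.886) and that to Zic1 by 0.29 (0.314). With each library left out, the difference in the ratio to Cidea ran from -0.26 without CAC 3 to -0.0448 without CTR 2, that to Ppargc1b from -0.31 without CTR 4 to -0.0976 without CTR 2, and that to Zic1 from 0.12 without CAC 2 to 0.46 without CAC 3 (exact permutation p = 0.0571). Of the 9 ratios, that to Ppargc1a passed an unadjusted 0.05 with all libraries, and without CTR 4 that to Dio2 did too (-1.001, exact permutation p = 0.0286). The ratio to Ppargc1a missed 0.05 in 5 of the 8 sets that left out 1 library, with an exact permutation p of 0.0571 without CTR 2 or any 1 of the CAC libraries, and in sign flips over same-numbered pairs (p = 0.125, the smallest these can give). The log2FC in that pair was 0.73 for Ppargc1a and 0.03 for Ucp1.

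**Figure D4:**
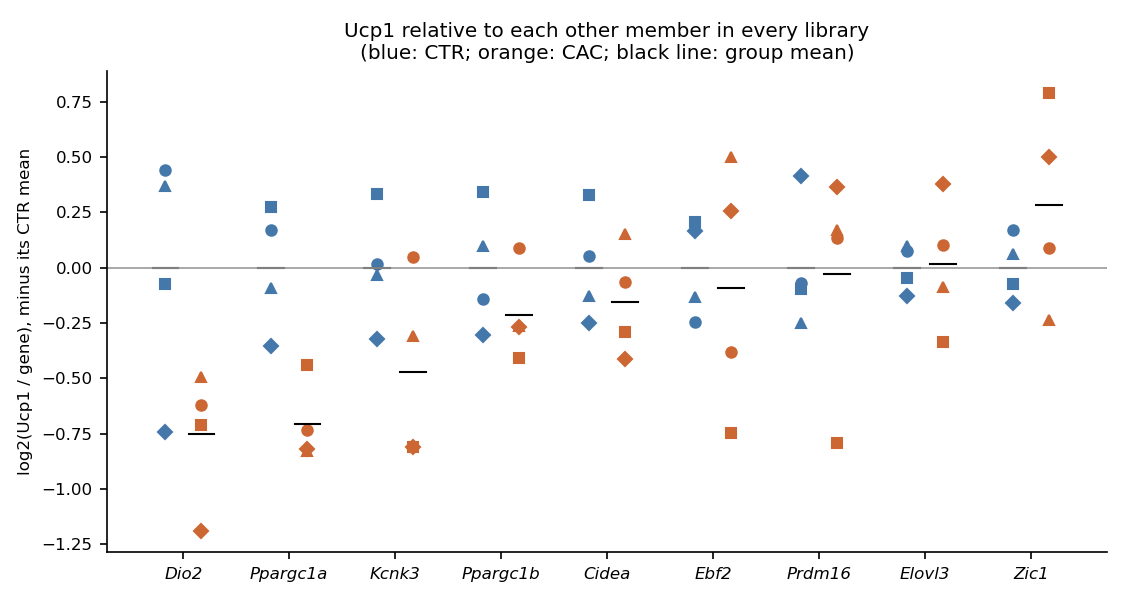
Log2 ratio of Ucp1 to each other member in every library, less the CTR mean of that ratio, with CTR in blue, CAC in orange and group means as black lines. For Ppargc1a every CAC point lies below every CTR point (mean difference -0.71), and for Dio2 (-0.75) the CTR 4 diamond lies inside the CAC range.

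Beyond the members, 24 known activators of Ucp1 were examined, 22 of which were tested. Of these, 1 rose (Ppargc1a), 0 fell and 21 did not pass the test, with a median log2FC of -0.02. The count was 0 without CTR 1, CTR 2 or CAC 3, 3 without CTR 4 (with Dio2 and Ppara), 3 with no filter on low counts (with Ppara and Pparg) and 2 with the replicate block (with Dio2). At an unadjusted p below 0.05, 4 were higher and 1 was lower, where 7.01% and 5.93% of all tested genes were. Besides Ppargc1a, the higher ones were Ppara, the fatty acid receptor of oxidative tissues (0.50, edgeR adjusted p = 0.381, and 0.75, adjusted p = 0.00883, without CTR 4), the thyroid hormone receptor Thrb (0.33, adjusted p = 0.332) and the zinc finger activator Zfp516 (0.65, adjusted p = 0.216). The lower one was Pparg, the master regulator of adipocytes, which went from 41.2 ± 15.2 to 25.3 ± 4.95 CPM (SD, n = 4) with a log2FC of -0.71 (edgeR adjusted p = 0.261, and 0.000372 with no filter).

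Both PPAR genes were more spread in CTR than in CAC. Pparg was at 57.9, 50.1, 27.4 and 29.3 CPM in CTR 1 to 4, and its lowest library was CAC 1 and its highest in CAC was CAC 2 with 31.9 CPM. Ppara was at 144, 85.8, 99.2 and 186 CPM in CTR 1 to 4 and at 176, 189, 189 and 178 CPM in CAC 1 to 4. CTR 4 again lay inside the CAC range for Ppara. Values for Esrra (-0.14, adjusted p = 0.804) and Cebpb (-0.32, adjusted p = 0.418), which bind the promoters of oxidative and adipocyte genes, did not pass edgeR's test. With each library left out, Esrra ran from -0.24 to -0.0407 and Cebpb from -0.49 to -0.23, and neither was called.

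Repressors and upstream signals of Ucp1 were examined next. Of 12 repressors of Ucp1, 10 were tested and 0 were called by edgeR, DESeq2 or limma-trend, and 0 had an unadjusted p below 0.05, with a median log2FC of 0.17. The smallest p values belonged to Rb1 (-0.33, edgeR adjusted p = 0.419) and Id1 (-0.40, adjusted p = 0.514). Leaving out 1 library moved Rb1 between -0.43 and -0.20 and Id1 between -0.59 and -0.20. Of 13 genes of adrenergic input, 12 were tested, with a median of 0.04. Of these, 0 were called by edgeR with its filter, all libraries and no replicate block, by DESeq2 or by limma-trend. Where 5.93% of all tested genes were lower at an unadjusted p below 0.05, 2 of the 12 were. These were the receptor Adrb1 (-0.55, edgeR adjusted p = 0.277) and the kinase subunit Prkaca (-0.28, adjusted p = 0.282). Adrb1 was called as lower without CTR 4 (-0.71, adjusted p = 0.0282), with no filter (adjusted p = 0.00287) and with the replicate number as a block (adjusted p = 0.0459). Adrb3, the main adrenergic receptor of mouse adipocytes, had means of 135 ± 20.3 and 148 ± 30.1 CPM (SD, n = 4) in CTR and CAC, with a log2FC of 0.14 (edgeR adjusted p = 0.747), which was 0.28 without CAC 1 (adjusted p = 0.302) and 0.0387 without CTR 3 (0.958).

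Of 21 brown fat effectors, 19 were tested, with a median of 0.03. Of these, 0 were called by edgeR with its filter, all libraries and no replicate block. The same held for limma-trend and for DESeq2 on the genes that passed that filter. Dio2 and Kcnk3 were called without CTR 4 and with the block (adjusted p = 0.0308 and 0.0422), and Kcnk3 also with no filter and by DESeq2 restricted to the genes of the deposited normalized table (adjusted p = 0.0454). Over all tested genes, 7.01% were higher and 5.93% were lower at an unadjusted p below 0.05. Of the effectors, 2 were higher at that level, Kcnk3 and the asparaginase Aspg (0.36, edgeR adjusted p = 0.183), and 3 were lower. The lower ones were the thioesterase Acot11 (-0.29, adjusted p = 0.290) and the respiratory chain subunits Cox7a1 (-0.22, adjusted p = 0.292) and Cox8b (-0.22, adjusted p = 0.286). Thrb, Zfp516, Acot11, Cox7a1 and Cox8b were named after their values were seen, to complete these counts. Since Ucp1, Dio2, Prdm16, Ebf2 and the coactivators are members as well as entries of these lists, the lists are not independent of the counts given above.

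**Figure D5:**
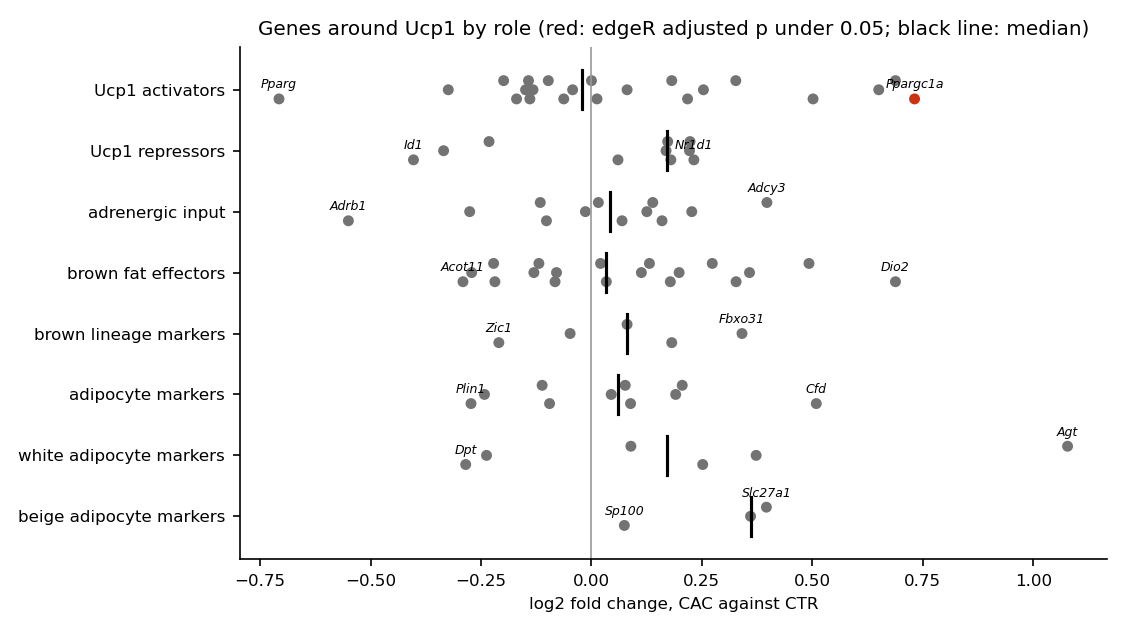
Log2FC of CAC against CTR for the tested genes of 8 lists around Ucp1 and adipocyte identity, with black lines for medians, red for an edgeR adjusted p below 0.05 and names for the lowest and highest gene of each list. Ppargc1a (0.73) is the red point, and the medians of activators (-0.02), adrenergic input (0.04) and effectors (0.03) lie near 0.

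Adipocyte identity was examined with lists for brown, white, beige and general adipocytes. Over all tested genes, 12.9% had an unadjusted p below 0.05 in edgeR's test, 7.01% as higher and 5.93% as lower. Of 12 brown lineage markers, 5 passed the filter and 0 were called by edgeR, DESeq2 or limma-trend, and 0 had an unadjusted p below 0.05, with a median log2FC of 0.08. Of 12 white adipocyte markers, 6 were tested and 0 were called by these tools, with a median of 0.17 and 1 at an unadjusted p below 0.05, the angiotensinogen gene Agt (1.08, edgeR adjusted p = 0.0778). Without CTR 4 and with no filter, 2 of the white markers were called, Agt as higher (adjusted p = 0.0493 and 0.0145) and the leptin gene Lep as lower. Of 8 beige markers, 3 were tested and 0 were called by these tools, with 1 at an unadjusted p below 0.05, the fatty acid transporter Slc27a1 (0.40, edgeR adjusted p = 0.284). All 10 adipocyte markers were tested and 0 were called by edgeR or limma-trend, while DESeq2 called Cfd, the secreted protease adipsin (0.51, edgeR adjusted p = 0.0881), as did edgeR with no filter, without CTR 4 or without CAC 2, and at an unadjusted p below 0.05 Cfd and Cidec were higher and the lipid droplet coat gene Plin1 was lower (-0.27, edgeR adjusted p = 0.192).

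The genes most like Ucp1 over the 8 libraries were not other members. By Pearson correlation of log2 CPM among 4128 genes with a mean of at least 20 CPM, they were the mitochondrial carrier Sfxn5 (r = 0.976), the ubiquitin-conjugating enzyme Ube2l3 (0.970), catalase (Cat, 0.951), the proteasome subunit Psmb5 (0.941) and the mevalonate pathway kinase Pmvk (0.938). Elovl3 was the closest member, at r = 0.589 and rank 399, followed by Ebf2 at 0.444, while Ppargc1a stood at 0.364 and Kcnk3 at -0.297. With the group means removed, Elovl3 was at 0.590, Ppargc1a at 0.523, Ebf2 at 0.438 and Kcnk3 at -0.566, so that Ppargc1a passed Ebf2 in this order. The genes most like Ppargc1a were Uhrf1bp1l (0.970), Gm13680 (0.965), the lipid droplet gene Cidec (0.965), the macrophage complement gene C1qa (0.962) and Tgoln1 (0.949), and Dio2 was its closest member at 0.797 and rank 104. With each library left out, the r of the 5 genes nearest to Ucp1 stayed at or above 0.754, each lowest without CAC 1. The genes nearest to Ucp1 and to Ppargc1a were picked for high r over these same libraries. High values in subsets of these libraries therefore add no evidence. All 8 points share depth and scaling, and those for Ppargc1a also share the difference between the groups, so these values are a description. With the group means removed, the 5 genes nearest to Ppargc1a were at 0.859 to 0.942 and Dio2 was at 0.533.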

How the data were processed

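Of the 8 mice, 1 library each was made from 50 ng of total RNA and read as single ends of 75 cycles. The authors checked reads with FastQC 0.11.9, aligned them to mm10 with HISAT2 2.2.1 and counted them with featureCounts, multi-mapping reads included. The deposited table holds expected counts, with fractions of reads and no normalization. A further deposited table holds a signal that the authors made by dividing counts by DESeq2 size factors.

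Counts were rounded, filtered by filterByExpr, scaled by TMM and fitted with edgeR 4.0.16 (robust quasi-likelihood test) in R 4.3.3, with no covariate and Benjamini-Hochberg adjustment over 9876 genes at 0.05. Intervals at 95% come from the standard errors. On simulated counts for this comparison (9641 genes), the test found 78 of 97 genes given a log2 change of 1, 96 of 96 given a change of 2, and wrongly called 9 of 9448. The spread of the simulated counts was set by expression level alone, and no log2 change between 0 and 1 was simulated. How often the test finds smaller changes, or changes in genes with a wider spread, is not known from it. Ratios used log2 CPM with a prior count of 2 and two-sided exact permutation over 70 assignments. P-values measure the spread between these mice. Coordinates are those of GENCODE M21 (GRCm38), which matched 91.4% of the IDs without version.

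The members and lists were chosen with earlier results of these data known. Genes named are the members, in each list those called or else the 2 with the smallest p, Pparg, Ppara, Esrra, Cebpb, Adrb3, Adipoq and Fabp4, and the 5 genes most like Ucp1 and Ppargc1a. Alternatives were DESeq2 1.42.0, other scalings, other filters, limma 3.58.1 (limma-trend) on log2 of the deposited signal plus 1, the replicate number as a block and each library left out. A DESeq2 fit restricted to the genes of that signal table was chosen after seeing the data. It took counts rounded down and did not apply edgeR's filter, whereas the other DESeq2 fit used the genes that passed it.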

Additional observations from a re-analysis of the deposited data

Results flagged for a closer look

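In groups of 4, a library was marked where its gap to the nearest other, as a share of the range of the group, passed Dixon's critical value, which happened in 4 of the 150 groups tested, where chance gives about 1 in 20. Adrb3 was at 103 CPM in CAC 1 and at 159 to 169 CPM in the other CAC libraries, and its log2 fold change of 0.14 was 0.28 without CAC 1 (edgeR adjusted p = 0.302). Aspg was at 98.3 CPM in CTR 3, against 132 to 136 CPM in the rest of CTR, and at 195 CPM in CAC 2, against 147 to 151 CPM in the rest of CAC. Fabp4, the fatty acid carrier of adipocytes, was at 3323.1 CPM in CTR 3 and at 3901 to 3966 CPM in the other CTR libraries, and its log2 fold change was -0.24 (edgeR adjusted p = 0.387). None of these 4 values belongs to one of the 10 members.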

How the results depend on the processing

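The number of genes called was 92, and 351 with no filter on low counts, 140 with a replicate block, and 42 to 135 with each library left out (42 without CTR 1). The number of members called was 1, and 2 with no filter, 3 with the replicate block, 2 with DESeq2 restricted to the genes of the deposited normalized table (chosen after seeing the data), and 0 to 3 with each library left out. It was 0 without CTR 1, CTR 2 or CAC 3, and 3 without CTR 4. The replicate block added Dio2 (0.76, adjusted p = 0.0308) and Kcnk3 (0.49, adjusted p = 0.0422) to the calls, and from the lists Adrb1 (-0.54, adjusted p = 0.0459). Deviations of same-numbered libraries correlated from -0.023 to 0.036, and 2 of the 4 CTR libraries correlated best with their own number. Correlations this small cannot show whether same-numbered libraries share more than a number, and a shared batch was not tested. With each library left out, log2 fold changes ran from 0.63 to 0.89 for Ppargc1a, from -0.0672 to 0.0944 for Ucp1, from -0.17 to 0.26 for Prdm16, from -0.0593 to 0.18 for Elovl3 and from -0.0182 to 0.38 for Ebf2. Elovl3 also turned to -0.0084 with no filter and to -0.0024 with upper quartile scaling. The ratio of Ucp1 to Ppargc1a differed by -0.82 to -0.61 (exact permutation p from 0.0286 to 0.0571, of 35 assignments), and its replicate block, by sign flips over 4 pairs, gave -0.71 with p = 0.125, the smallest such a permutation can give. The ratio to Dio2 passed 0.05 without CTR 4 (-1.001, exact permutation p = 0.0286) and ran from -1.001 to -0.61. The difference of the ratio ran from -0.16 to 0.22 for Prdm16, from -0.11 to 0.13 for Elovl3 and from -0.29 to 0.13 for Ebf2. Where calls changed, the cause was not tested. Zic1 had no value with at least 10 counts in every library. Counting error is largest for Zic1, at 6 to 33 counts.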

Other observations

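Leptin (Lep), a white adipocyte hormone gene looked up after its values were seen, did not pass the low-count filter with all libraries. It had 50 reads over the CTR libraries and 8 over the CAC libraries, with 5.40, 4.53 and 5.39 CPM in CTR 1 to 3 and 1.08, 0, 1.47 and 0.35 CPM in CAC 1 to 4. CTR 4 lay within the CAC range, and 3 counts equal 0.661 to 1.62 CPM, so no fold change is given. With no filter, and in the fit without CTR 4, edgeR called Lep as lower in CAC.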
